A study of Homo sapiens with 4 samples.

Results

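miR-221-3p and miR-222-3p are a pair of neighbouring microRNAs that share one seed and are best known as repressors of p27, the cell cycle inhibitor encoded by CDKN1B. They were chosen by name, as every entry of the deposited table called miR-221 or miR-222, which gave 2 members, hsa-miR-222-3p and hsa-miR-221-3p (the prefix is left out below), of 1096 listed entries (516 catalogue miRNAs and 580 predicted ones). Both members are 3p arms, and their 5p arms were not analysed here.

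The pair was measured in the human prostate cancer line PC-3, with and without apelin, a peptide hormone whose receptor is APJ. Apelin cells were given the peptide at 10 µg/mL for 24 h in culture medium (2 libraries, apelin 1 and apelin 2), and control cells are labelled as having no treatment (2 libraries, control 1 and control 2). All 4 libraries came from the same line grown in medium with fetal bovine serum, and the labels name no vehicle for the controls. Nothing in the labels ties the 2 libraries of a group to separate cultures. The spread behind each p-value is therefore that of these libraries alone and may be technical.

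MicroRNAs are short RNAs that guide a silencing complex to messenger RNAs, mainly by pairing of the seed, bases 2 to 8, with the 3′ untranslated region (UTR) of the target. miR-221 and miR-222 are cut from one primary transcript. Besides p27, which holds cyclin-dependent kinases in check and keeps cells in G1, they are known to repress its relative p57 (CDKN1C), the receptor KIT, the protease inhibitor TIMP3 and the cell death gene BBC3. In prostate cancer they are known for high levels in PC-3 cells and low levels in the androgen-responsive line LNCaP, and NF-kB and AP-1 are known to drive their transcription.

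The mature sequences are shown because the shared seed is what makes the pair act on the same targets. They are from RefSeq (GRCh38.p14), 5′ to 3′, with the seed in capitals.
miR-222-3p: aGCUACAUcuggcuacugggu
miR-221-3p: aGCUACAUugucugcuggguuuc
The first 8 bases were identical, and 11 of the first 21 positions matched when the sequences were set side by side from the 5′ end. After the first 8 bases the longest run in common was 6 bases. Of 2370 mature names in the RefSeq table, 2 carried this seed, and both are the members described here.

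The hairpins, with the mature 3p arm in capitals, show where in the precursor each counted RNA lies.
MIR222: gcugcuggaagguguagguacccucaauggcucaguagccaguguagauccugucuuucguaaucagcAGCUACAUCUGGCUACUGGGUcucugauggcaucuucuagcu
MIR221: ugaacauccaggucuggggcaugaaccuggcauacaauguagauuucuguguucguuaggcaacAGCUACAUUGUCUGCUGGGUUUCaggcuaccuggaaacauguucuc
MIR222 lies at chrX:45747015-45747124 and MIR221 at chrX:45746157-45746266, both on the minus strand of GRCh38, with 748 bases between them. miR-222 is thus the one nearer to the transcript's start. In GENCODE release 29 both hairpins lie in an intron of the longer transcript of the lincRNA MIR222HG (chrX:45745211-45770274, minus strand), and MIR221 ends 56 bases before its last exon. Of the 34 catalogue entries whose RefSeq hairpins are all on the X chromosome, the pair held 93.7% and 93.9% of the counts in apelin 1 and 2, and 93.6% and 93.1% in control 1 and 2. The next of these 34, miR-361-5p, had at most 1894 TPM in any library. Entries with a hairpin on another chromosome as well, or with a name not in the RefSeq table, were left out of this set. Its shares are therefore not those of all reads from X-linked hairpins.

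A match to the seed in a 3′ UTR reads ATGTAGC in DNA letters on the transcript's own strand. The CDKN1B 3′ UTR held this match 2 times. Both are printed, with the match in capitals, because they tie the seed to the gene the pair is best known for.
CDKN1B match 1: ctctaaaagcgttggATGTAGCa
CDKN1B match 2: tagtttttaccttttATGTAGCa
They lie at chr12:12721213-12721235 and chr12:12721286-12721308 (GRCh38, plus strand), and the matches begin 201 and 274 bases after the stop codon. The whole UTR is 1344 bases long. Of 8371 genes with a 3′ UTR at least that long, 6.46% held the match in their first 1344 bases and 0.287% held it 2 or more times. Over all 19120 protein-coding genes with an annotated 3′ UTR, 8.09% held it at least once. KIT also held 2 matches, and CDKN1C, TIMP3, BBC3, BMF, DIRAS3 and ESR1 held 1 each. For each, the share of genes with a match over the same length was counted as for CDKN1B. It was 10.5% for KIT (0.702% with 2 or more matches), 3.28% for CDKN1C and 17.8% for TIMP3. For BBC3 it was 4.70%, for BMF 19.1%, for DIRAS3 3.36% and for ESR1 20.3%. The 3′ UTR of FOXO3, searched in the same way, did not contain these letters. Target mRNA or protein was not measured in these libraries.

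Read counts were deposited for each library together with TPM values, which here are counts per 1000000 counts of the library and are not divided by length. The totals were 5322429 counts in apelin 1 and 5701358 in apelin 2, and 6014838 in control 1 and 5662879 in control 2. Some miRNAs are listed under more than 1 name, such as miR-92a-3p and miR-92a-2-3p, both at a mean of 27250 TPM. Such reads may count more than once in the totals, which would lower every TPM value and share of counts. How much lower was not tested. Levels are of reads, so the order of 2 different miRNAs need not be the order of their molecules. In bulk RNA a change in the number of cells of a kind and a change in RNA per cell cannot be told apart. Markers of blood, endothelium, stroma, muscle, liver and neuron were low or had no entry, with no list summing above 37.1 TPM in any library. The epithelial list summed to 6562 to 6595 TPM with apelin and 6801 to 7046 TPM in controls, nearly all of it miR-200b-3p. Its 3 tested members, miR-200b-3p (log2 fold change -0.048), miR-200c-3p (-0.42) and miR-205-5p (-0.30), were each lower in both apelin libraries than in either control, as were 17.5% of the 263 tested entries. edgeR called 0 of the 3 (0 at an unadjusted p under 0.05), limma 0 and DESeq2 2 (miR-200c-3p, adjusted p = 0.0376, and miR-205-5p, adjusted p = 0.0129). Over all 263 tested entries edgeR called 0 (15, or 5.7%, at an unadjusted p under 0.05), limma 4 (1.52%) and DESeq2 53 (20.2%). The limma and DESeq2 calls included entries at 0 in some libraries. Of the rest of the epithelial list, miR-141-3p had no entry. miR-203a-3p was at 0 in both apelin libraries and control 2, and at 2.49 TPM in control 1. The related miR-200a-3p and miR-429, not on the list, had positive log2 fold changes (0.27 and 0.096 in edgeR). The part of the markers in the results on the pair was not tested.

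The pair was among the most abundant miRNAs of PC-3 cells with or without apelin. miR-222-3p had 284155 and 277610 counts in apelin 1 and 2, and 296559 and 283279 counts in control 1 and 2. In TPM this was 53388 in apelin 1 and 48692 in apelin 2, against 49305 in control 1 and 50024 in control 2. Both controls lay between the 2 apelin libraries, so the groups overlapped, and apelin 1 alone stood above the rest. The group means were 51040 ± 3321 TPM with apelin and 49664 ± 509 TPM in controls (SD, n = 2 each).

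miR-221-3p had 228238 and 251919 counts in apelin 1 and 2, and 259770 and 241669 counts in control 1 and 2. This was 42882 TPM in apelin 1 and 44186 TPM in apelin 2, against 43188 TPM in control 1 and 42676 TPM in control 2. All 4 libraries were close together and the groups overlapped, with apelin 2 highest and control 2 lowest. The means were 43534 ± 922 TPM with apelin and 42932 ± 362 TPM in controls (SD, n = 2 each).

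miR-222-3p ranked 3 among the 516 catalogue miRNAs in both apelin libraries, against 4 in control 1 and 5 in control 2. miR-221-3p ranked 6 in apelin 1 and 4 in apelin 2, against 6 in both controls. By mean TPM over the libraries the ranks were 3 and 6. The 2 miRNAs above them, miR-21-5p and miR-100-5p, were above miR-222-3p in all 4 libraries with no overlap in range. Between the members stood let-7a-5p, a repressor of RAS genes, and miR-125b-5p, and both overlapped in range with each member. miR-222-3p was above let-7a-5p in both apelin libraries and below it in both controls. let-7a-5p itself had 43825 and 39354 TPM in apelin 1 and 2 against 53985 and 56722 TPM in control 1 and 2. miR-23a-3p, next below miR-221-3p, had at most 36867 TPM and did not overlap with it, nor did miR-30d-5p and miR-125a-5p after it.

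**Figure D1:**
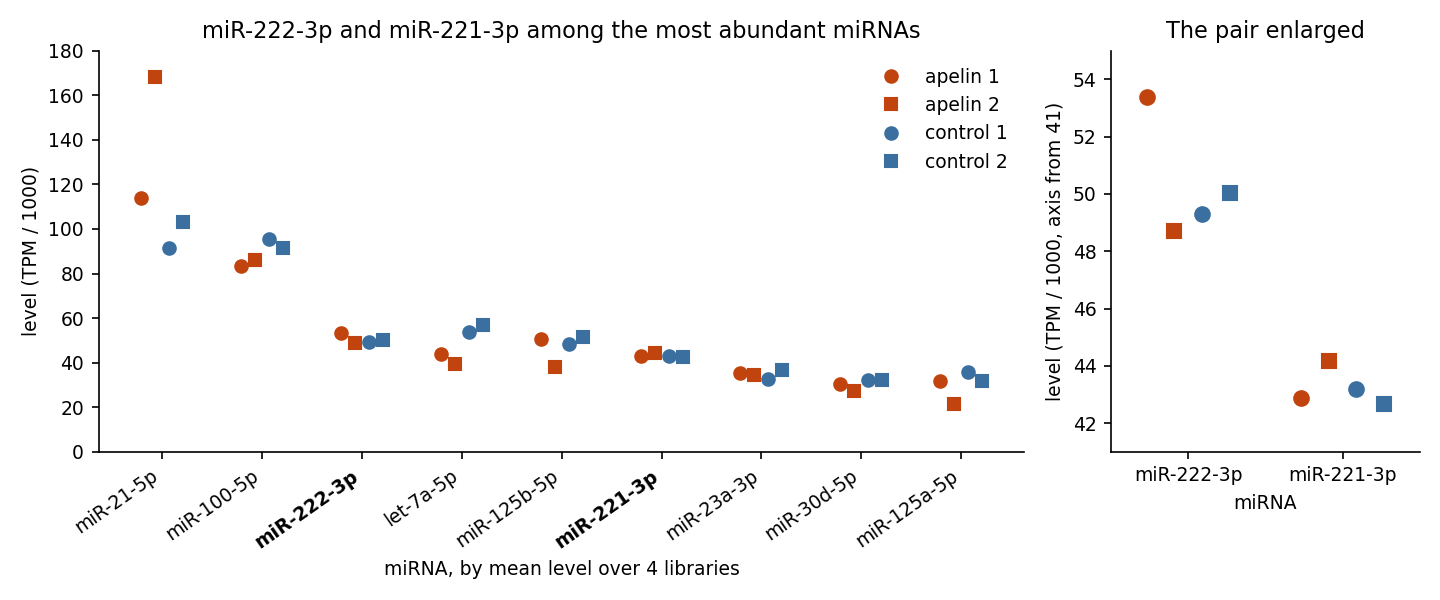
Level of each miRNA in TPM divided by 1000 (left, axis from 0), for the members and the 3 miRNAs next above and below each by mean level, and the pair enlarged (right, axis from 41). Each point is 1 library. miR-222-3p lies above miR-221-3p in all 4 libraries, while let-7a-5p and miR-125b-5p cross both.

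Whether apelin moves the pair was asked with edgeR's quasi-likelihood test, fitted on the 263 entries with a mean of at least 10 TPM. miR-222-3p had a log2 fold change, apelin over control, of 0.058 (SE 0.050, adjusted p = 0.688 in edgeR). Its 95% confidence interval ran from -0.10 to 0.22, which is 0.931-fold to 1.16-fold. For miR-221-3p the log2 fold change was 0.041 (SE 0.078, adjusted p = 0.871 in edgeR), with an interval from -0.21 to 0.29, or 0.863-fold to 1.23-fold. Neither passed the threshold of 0.05, nor did any other entry: edgeR called 0 of 263 (0%), with 15 (5.7%) at an unadjusted p under 0.05. DESeq2 called 53 (20.2%) and limma 4 (1.52%), and neither tool called a member (adjusted p = 0.347 for miR-222-3p and 0.856 for miR-221-3p in DESeq2, 0.820 and 0.881 in limma). The 4 limma calls were predicted entries, each at 0 in 2 libraries. The DESeq2 calls included entries at 0 in 3 libraries, such as miR-1260a (log2 fold change -29.4 in DESeq2). They also included entries above 0 in all libraries, such as let-7a-5p.

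Both estimates were small beside those of the other entries. The size of the log2 fold change was smaller than that of miR-222-3p for 32 of 263 entries (12.2%) and smaller than that of miR-221-3p for 19 (7.22%), while the median size was 0.27. The 263 include entries at 0 in some libraries, whose estimates can be very large, such as NovelmiRNA-563 at -18.8. A further fit took only the 207 catalogue miRNAs above 0 in all 4 libraries with a mean of at least 10 TPM. In it, 22 had a smaller size than miR-222-3p and 13 than miR-221-3p. The sign for miR-221-3p rested on single libraries, since its log2 fold change was -0.082 without apelin 2 and -0.015 without control 2. For miR-222-3p it was 0.024 without apelin 2, 0.019 without apelin 1 and 0.020 without control 2. 

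**Figure D2:**
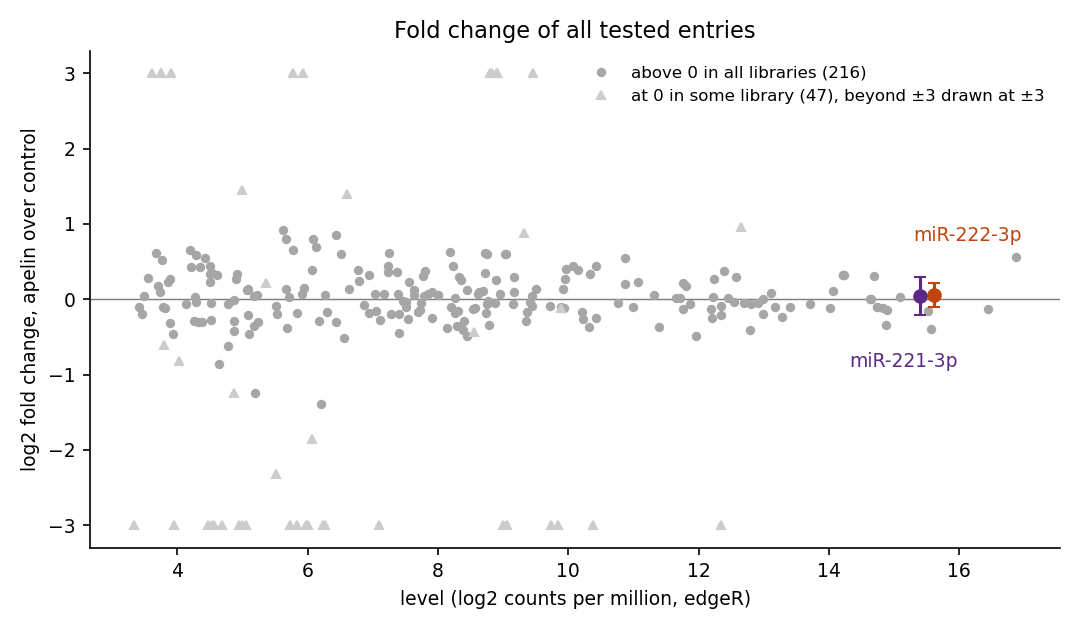
Log2 fold change, apelin over control, against level for all 263 tested entries, with the 95% confidence interval for the 2 members. Both members lie at the abundant end, and both intervals include 0.

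The spread of the members over the 4 libraries, whatever the group, was narrow. The SD of log2 TPM was 0.059 for miR-222-3p and 0.022 for miR-221-3p, against a median of 0.21 over the 207 catalogue miRNAs with a mean of at least 10 TPM and a count in every library. miR-221-3p had the second smallest SD of the 207, and miR-222-3p was at place 10. Among the 20 most abundant distinct miRNAs they took places 1 (miR-221-3p) and 2 (miR-222-3p), where the median SD was 0.14 and miR-21-5p had the largest, 0.38. These places depended on the scaling. After edgeR's TMM scaling (trimmed mean of M-values, factors 1.02 and 0.964 for apelin 1 and 2, and 0.980 and 1.03 for control 1 and 2) the SD was 0.045 for miR-222-3p and 0.070 for miR-221-3p, places 5 and 13 of 207.

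**Figure D3:**
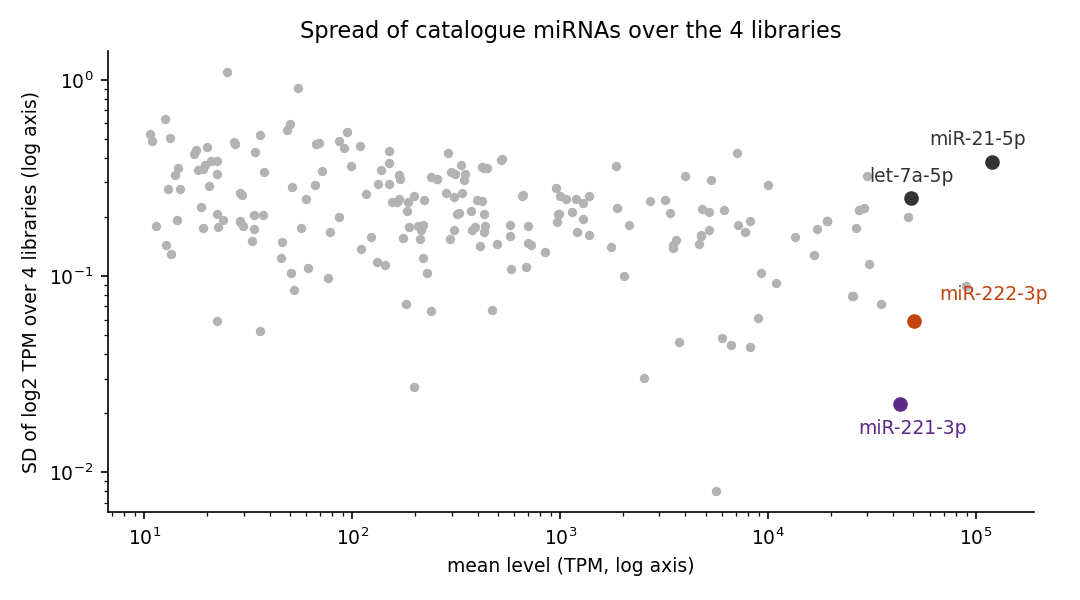
SD of log2 TPM over the 4 libraries against mean level, both on log axes, for 207 catalogue miRNAs. miR-221-3p (0.022) and miR-222-3p (0.059) lie far below miR-21-5p (0.38) and let-7a-5p (0.25).

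The pair together held 9.63% of the counts in apelin 1 and 9.29% in apelin 2, against 9.25% in control 1 and 9.27% in control 2. In this share of all counts both apelin libraries lay above both controls, apelin 2 only narrowly. The means were 9.46% ± 0.24 with apelin and 9.26% ± 0.015 in controls (SD, n = 2 each), a difference of 0.20 percentage points (exact permutation test, two-sided, p = 0.333, which is the smallest that 2 against 2 libraries can give). Of all 263 tested entries 20.9% had both apelin libraries above both controls. This share depends on what else is in the library, and on reads listed under more than 1 name, which were not collapsed in these totals. miR-21-5p, the most abundant entry by mean, took 11.4% and 16.8% of the counts in apelin 1 and 2 and 9.14% and 10.3% in control 1 and 2. With miR-21-5p left out of the total, the pair held 10.9% in apelin 1 and 11.2% in apelin 2, against 10.2% in control 1 and 10.3% in control 2, a difference of 0.757 percentage points. With only catalogue entries in the total, the pair held 9.89% in apelin 1 and 9.41% in apelin 2. The controls then had 9.52% in control 1 and 9.48% in control 2. Apelin 2 thus lay below both controls, the groups overlapped, and the difference was 0.148 percentage points. Without apelin 1 the difference in the share of all counts was 0.028 percentage points, and without apelin 2 it was 0.367.

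The ratio of miR-222-3p to miR-221-3p is free of library scaling, since both are counted in the same library. miR-222-3p was the higher in all 4 libraries, with a ratio of 1.24 in apelin 1 and 1.10 in apelin 2, against 1.14 in control 1 and 1.17 in control 2. The 2 apelin libraries were the highest and the lowest, with both controls between them. The ratio averaged 1.17 ± 0.10 with apelin and 1.16 ± 0.022 in controls (SD, n = 2 each), a difference in log2 ratio of 0.018 (exact permutation test, two-sided, p = 1). That difference was -0.070 without apelin 1, 0.106 without apelin 2 and -0.0011 without control 1.

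The spread of the ratio was larger than the counting error that independent reads would have. miR-222-3p made up 55.5% of the pair's counts in apelin 1 (95% Wilson interval 55.3% to 55.6%) and 52.4% in apelin 2 (52.3% to 52.6%), against 53.3% in control 1 (53.2% to 53.4%) and 53.96% in control 2 (53.8% to 54.1%). No interval overlapped another. These intervals cover the counting of reads only and treat each read as a separate molecule. They may be too narrow, since reads amplified by PCR and carrying no molecular identifier can repeat the same molecule.

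The log2 ratio was also set beside that of other neighbouring miRNAs known to come from a single transcript, 14 pairs with this one, of which 8 were measured at the minimum level. Over the 4 libraries the log2 ratio of miR-222-3p to miR-221-3p ranged by 0.18, the second smallest of the 8. miR-17-5p and miR-20a-5p, from the miR-17-92 transcript, ranged by 0.084. miR-191-5p and miR-425-5p followed with 0.28, and the widest were miR-106b-5p and miR-93-5p, from an intron of MCM7, with 0.99. In 4 of the 8 pairs the apelin and control ratios did not overlap, and this pair was not among them. In TPM, 38.4% of the 263 tested entries had groups that did not overlap. The counts behind the pairs differ, from 441 for the scarcest member of the set to 228238 for miR-221-3p in its lowest library, so the ranges are a description.

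**Figure D4:**
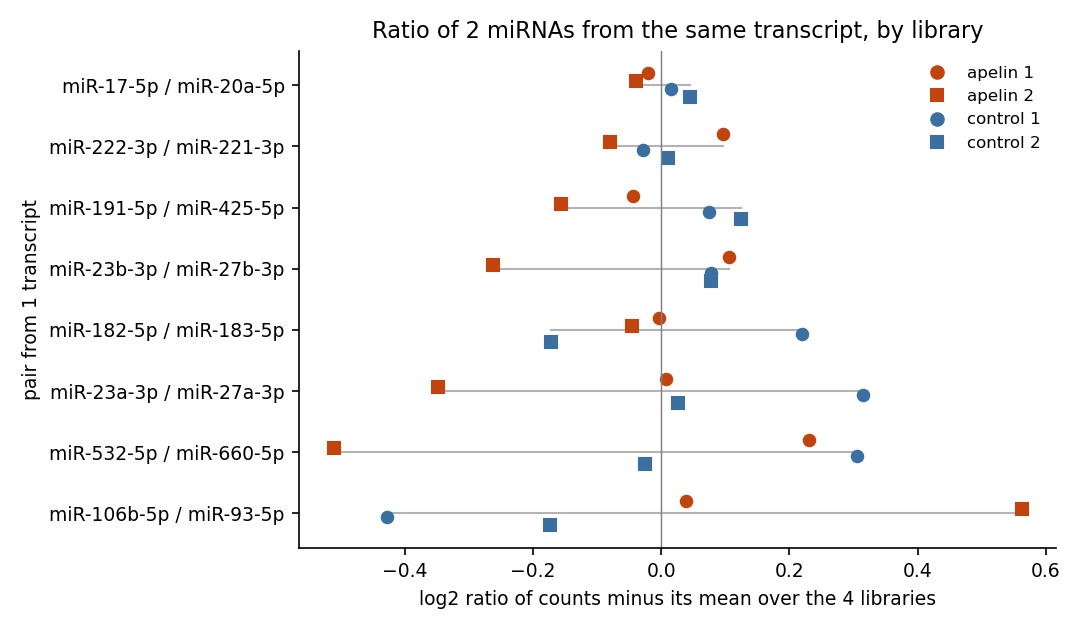
Log2 ratio of 2 miRNAs from 1 transcript in each library, minus its mean over the 4 libraries, for 8 pairs ordered by range (grey line). The ratio of miR-222-3p to miR-221-3p ranges by 0.18, with apelin 1 and apelin 2 at its ends.

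Profiles most like those of the members were sought among 206 other catalogue miRNAs by the root mean square difference in log2 TPM, each taken as its deviation from its own mean over the 4 libraries. Nearest to miR-222-3p was miR-425-5p (0.014), followed by miR-186-5p (0.045), miR-99a-5p (0.045), miR-3200-3p (0.047) and miR-500a-5p (0.051). Like miR-222-3p, miR-425-5p was highest in apelin 1, at 0.089 above its mean, where miR-222-3p was 0.085 above. Nearest to miR-221-3p was miR-183-5p (0.018), followed by miR-99a-5p (0.024), miR-186-5p (0.026), miR-152-3p (0.043) and miR-185-5p (0.049). The members differed from each other by 0.064, so miR-221-3p came at place 9 for miR-222-3p, and miR-222-3p at place 15 for miR-221-3p. With 4 libraries and profiles this flat, such places are a description of these libraries.

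Other miRNAs reported to act on CDKN1B were described beside the pair, from a list of 6. Of the 6, all tested, edgeR, DESeq2 and limma called 0 each, and 0 had an edgeR p under 0.05 before adjustment. Positive log2 fold changes were found for 4 and negative ones for 2, with a median of 0.052, against 130 positive, 133 negative and a median of -0.018 over all 263 entries. For 2 of the 6 the groups did not overlap, 1 in each direction. Over all tested entries this held for 38.4%, with apelin above both controls in 20.9% and below both in 17.5%.

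miR-24-3p, the most abundant of them, had 19580 and 22574 TPM in apelin 1 and 2, and 16997 and 17210 TPM in control 1 and 2 (log2 fold change 0.32, SE 0.13, adjusted p = 0.627 in edgeR). Its reads are also listed under the names of its 2 hairpin copies, so its level is uncertain. miR-196a-5p, from the HOX clusters, had 16.4 and 25.4 TPM in apelin 1 and 2, and 31.1 and 34.8 TPM in control 1 and 2 (log2 fold change -0.62, SE 0.36, adjusted p = 0.627 in edgeR). These were the 2 without overlap. miR-181a-5p had 3566 and 3034 TPM in apelin 1 and 2, and 3492 and 3819 TPM in control 1 and 2, with a log2 fold change of -0.13. miR-455-3p, miR-152-3p and miR-148a-3p were scarcer, at most 245 TPM in any library, and their groups overlapped. With miR-24-3p counted once, the list's sum was 23440 and 25924 TPM in apelin 1 and 2 and 20772 and 21362 TPM in control 1 and 2.

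Of 3 further miRNAs from genes that NF-kB or AP-1 is known to drive, as it does MIR222HG, 2 were abundant enough to test, and 0 were called by edgeR, DESeq2 or limma, with 0 at an unadjusted p under 0.05 in edgeR. miR-21-5p, which represses the tumour suppressor PDCD4, had 113810 and 168194 TPM in apelin 1 and 2, and 91403 and 103045 TPM in control 1 and 2 (log2 fold change 0.57, SE 0.27, adjusted p = 0.627 in edgeR). miR-146a-5p, which dampens NF-kB signalling through TRAF6 and IRAK1, had 7569 and 5846 TPM in apelin 1 and 2, and 5644 and 5421 TPM in control 1 and 2 (log2 fold change 0.29, SE 0.15, adjusted p = 0.627 in edgeR). miR-155-5p was listed at 0 in both apelin libraries and control 2, and at 1.83 TPM in control 1. In both tested miRNAs the apelin libraries lay above the controls, as they did in 20.9% of all tested entries.

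**Figure D5:**
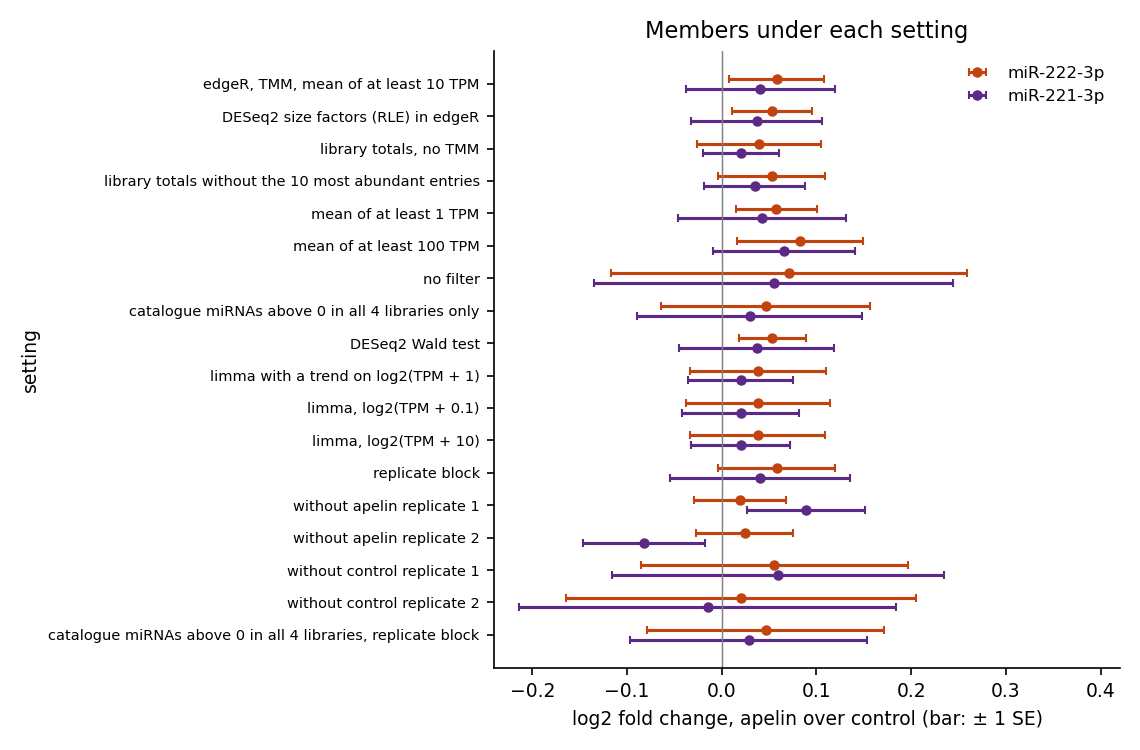
Log2 fold change, apelin over control, of miR-222-3p and miR-221-3p under each setting, with bars of ± 1 SE. With all 4 libraries the values lie between 0.020 and 0.083, and miR-221-3p turns negative without apelin 2 (-0.082) and without control 2 (-0.015).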

How the data were processed

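The authors deposited 1 table with whole-number read counts and TPM for each mature miRNA and library. The submitters' processing notes name Trimmomatic 0.30 and DESeq2. The aligner, the miRNA catalogue and the genome build were not given in the sources used here. Deposited TPM equals the count per 1000000 counts of its library, within 0.005 in 3 libraries and 0.151 in apelin 2, with no division by the listed length.

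The main test was edgeR 4.0.16 (quasi-likelihood, TMM) in R 4.3.3 on entries with a mean of at least 10 TPM, apelin over control, two-sided, Benjamini-Hochberg adjusted. SE was taken as |log2 fold change| divided by √F. DESeq2 1.42.0 and limma 3.58.1 on log2(TPM + 1) were alternatives, among 17 other fits (1 added after seeing the data). edgeR and DESeq2 were tested on simulated data. Exact permutation tests and Wilson intervals used scipy 1.17.1. Target matches were sought in each gene's longest GENCODE release 29 3′ UTR (1 gene planned for this search is not reported here).

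miRNAs were named by rule: the members, the 3 next above and below each by mean TPM, the 5 nearest profiles, and listed miRNAs of fixed lists. Members and lists were chosen with earlier results of these data known.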

Additional observations from a re-analysis of the deposited data

How the results depend on the processing

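Over 17 other fits the log2 fold change of miR-222-3p kept its sign (0.038 to 0.083 with all libraries, 0.019 to 0.055 with a library left out). That of miR-221-3p was 0.020 to 0.066 with all libraries, and -0.082 to 0.089 with one left out, negative without apelin 2 (-0.082) and without control 2 (-0.015). No fit called either member (adjusted p from 0.347 to 0.995). The count of called entries, 0 in the main test, was 4 at a mean of 100 TPM, 52 with no filter, 53 with DESeq2, 4, 5 and 4 with limma at pseudocounts of 1, 0.1 and 10, and 0 to 19 with a library left out (11 without control 1, 19 without control 2). With a replicate block edgeR called 0 of 263 (miR-222-3p 0.058, miR-221-3p 0.040), and 30 of the 207 catalogue miRNAs above 0 in all libraries, a setting chosen after seeing the data. No label says that a number marks a shared culture or day. Deviations of same-numbered libraries from their group means had a correlation of 0.318 across the 207 miRNAs. The log2 ratio difference, 0.018, was -0.070 to 0.106 with a library left out, negative without apelin 1 (-0.070) and without control 1 (-0.0011). The share difference, 0.198 percentage points, was 0.757 without miR-21-5p in the total and 0.028 to 0.367 with a library left out. With only catalogue entries in the total it was 0.148, and apelin 2 then lay below both controls. The cause was not tested. A fit that leaves out a library has 1 in that group, assumed to vary like the other group. Ranks 3 and 6 were the same with predicted entries included or identical entries collapsed. The planned fits of the 5p arms and shares of arms were not run, as no 5p entry was analysed here. With 2 libraries a group, precision is limited by their number and not by the depth of the pair.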

Other observations

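The listed length did not equal the RefSeq mature length for either member. miR-222-3p was listed at 23 nt, against 21 in RefSeq, and miR-221-3p at 22 nt, against 23 in RefSeq. Of 452 catalogue entries with a RefSeq sequence, 213 had the same length in both, 143 were listed longer and 96 shorter. The sources used here do not say what the column measures.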
